A study of Homo sapiens with 9 samples.

Results

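The cell cycle and DNA replication genes were read in RNA-seq libraries of PC-3, a long-established line of human prostate cancer cells. The set held 50 genes among the 60617 gene identifiers of the count files, found by their symbols, of which 23 act in S phase, 23 in mitosis and 4 in the control of G1. Of these, 49 were among the 18532 genes that passed the filter on low counts, and the cyclin D2 gene CCND2 was not. The 9 libraries came from 3 groups of 3: controls (Ctrl), cells given 1 µM decitabine (Dec), and cells given 1 µM decitabine together with 200 µM S-adenosylmethionine (SAM), the combination treatment (Dec_Sam). Treatment lasted 5 days according to the labels, and the doses came from the study's methods, which name a vehicle of sulfuric acid and ethanol in PBS. Libraries of cells given SAM alone were not analysed here, so a difference between the combination treatment and decitabine is that of adding SAM to decitabine, in 1 cell line. The labels do not say whether the libraries of a group came from separate cultures, so the p-values measure only the spread between these libraries. In bulk RNA, fewer cells in S phase or mitosis and less RNA of these genes per cell cannot be told apart.

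A cell copies its genome in S phase and divides it in mitosis. Origins of replication are licensed in G1, when the origin recognition complex, CDC6 and CDT1 load the ring-shaped MCM2–7 helicase on DNA. In S phase CDC45 and the GINS proteins join the ring, and primase and the polymerases follow it. In mitosis CDK1 with B-type cyclins, PLK1 and the Aurora kinases drive chromosome segregation, which the spindle checkpoint holds back until every chromosome is attached. The genes of both phases are transcribed in waves: E2F factors, released from the retinoblastoma protein, act on many S phase genes, while the MYBL2–MuvB complex and FOXM1 act on mitosis genes through CHR elements. Decitabine is a cytidine analogue that is built into DNA during replication and traps DNA methyltransferases there, and SAM is the methyl donor of these enzymes.

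The promoters of both classes were compared first, as a description of their letters. Whether promoter elements played a part in the choice of the genes is not given. RefSeq windows from 250 bases before to 50 bases after the transcription start (GRCh38.p14) were at hand for 39 members, 19 of S phase, 18 of mitosis and 2 of G1. Both strands were searched for letters of E2F sites (TTCCCGC, and as the other form of this site TTGGCGC). They were also searched for letters of CHR elements (TTTGAA, and as the other form of this element TTTAAA) and for the CCAAT box. The second CHR form reads the same on both strands, and a CCAAT box can share a base with the first E2F form. E2F-type letters stood in 14 of the 19 S phase windows (73.7%) and in 2 of the 18 mitosis windows (11.1%), against 9.33% of all 27305 windows. CHR-type letters stood in 15 mitosis windows (83.3%) and in 1 S phase window (5.26%), against 24.3% of all windows. CCAAT was found in 12 S phase windows (63.2%) and 16 mitosis windows (88.9%), against 35.7% of all windows. CHR-type letters and CCAAT stood together in 13 mitosis windows (72.2%) and in 0 of the 19 S phase windows, against 9.49% of all windows. The median number of CG pairs per window, the sites that DNA methyltransferases modify, was 33 for S phase, 23.5 for mitosis and 14 over all windows. These matches are a description of letters in a window and show no binding.

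For 9 members whose levels are described in detail, the 90 bases just before the start are given below, 5′ to 3′ on the strand of the gene, with the searched letters on either strand in capitals. They are PRIM1 (chr12:56752324-56752413, minus strand), PCNA (chr20:5126623-5126712, minus), GINS2 (chr16:85688955-85689044, minus), E2F1 (chr20:33686386-33686475, minus), PLK1 (chr16:23678799-23678888, plus), PTTG1 (chr5:160421765-160421854, plus), CCNB1 (chr5:69167060-69167149, plus), CENPA (chr2:26785966-26786055, plus) and CCNE1 (chr19:29811901-29811990, plus).
PRIM1: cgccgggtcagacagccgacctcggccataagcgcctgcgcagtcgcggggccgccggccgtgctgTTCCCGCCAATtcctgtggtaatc
PCNA: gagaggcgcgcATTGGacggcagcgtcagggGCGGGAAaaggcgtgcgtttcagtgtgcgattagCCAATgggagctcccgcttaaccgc
GINS2: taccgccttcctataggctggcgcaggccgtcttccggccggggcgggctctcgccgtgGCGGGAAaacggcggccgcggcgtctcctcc
E2F1: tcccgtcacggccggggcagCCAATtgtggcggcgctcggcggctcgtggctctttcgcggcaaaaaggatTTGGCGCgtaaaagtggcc
PLK1: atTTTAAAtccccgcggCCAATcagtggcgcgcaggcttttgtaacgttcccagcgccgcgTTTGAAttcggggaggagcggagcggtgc
PTTG1: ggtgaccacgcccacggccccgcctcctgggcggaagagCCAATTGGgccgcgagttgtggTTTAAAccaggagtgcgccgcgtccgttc
CCNB1: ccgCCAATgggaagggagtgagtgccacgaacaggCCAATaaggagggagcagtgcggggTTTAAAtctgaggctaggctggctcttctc
CENPA: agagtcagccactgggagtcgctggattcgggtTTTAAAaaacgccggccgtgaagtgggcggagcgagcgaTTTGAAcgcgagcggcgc
CCNE1: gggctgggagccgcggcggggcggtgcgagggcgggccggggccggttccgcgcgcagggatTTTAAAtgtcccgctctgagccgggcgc
In the first 4, of S phase, the capitals are E2F-type letters, with CCAAT in PRIM1, PCNA and E2F1. In PLK1, PTTG1, CCNB1 and CENPA, of mitosis, they are CHR-type letters, with CCAAT in all but CENPA. CCNE1 was the 1 S phase member with CHR-type letters in its window, and it had no E2F-type letters there.

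Each library held between 21934307 and 22489684 estimated counts, so depth hardly differed between groups. Levels are given as CPM, a gene's counts per 1000000 counts of its library after edgeR's TMM scaling, whose factors were 0.895 to 0.903 for the controls and 1.033 to 1.078 for the treated libraries. The median gene of all those tested was shifted by 0.28 on the log2 scale with decitabine and by 0.27 with the combination treatment when only library size was used for scaling, against 0.03 and 0.05 with TMM, so changes are given relative to the bulk of genes. Of the epithelial markers, KRT8, KRT18, EPCAM and CDH1 summed to between 528 and 684 CPM in every library. Markers of other cell types moved with treatment. The fibroblast list COL1A1, COL1A2 and DCN summed to 2.91 to 4.75 CPM in control libraries, 81.3 to 124 with decitabine, and 65.8 to 96.0 in the combination treatment group. The endothelial list PECAM1, CDH5 and VWF summed to 9.87 to 10.5, 30.9 to 41.7 and 36.5 to 43.8 CPM, nearly all of it PECAM1. The leukocyte list PTPRC, CD3E and CD14 summed to 0.198 to 0.3, 1.52 to 1.94 and 1.27 to 1.74 CPM. The part of these genes in the results was not tested.

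Nearly all genes of both phases were lower with decitabine. Against the controls, 21 of 23 S phase members fell and 1, the cyclin E1 gene CCNE1, rose, and 22 of 23 mitosis members fell and 0 rose (edgeR's quasi-likelihood test, Benjamini-Hochberg adjusted p under 0.05). Of all genes tested, 32.5% were called lower and 36.3% higher in this comparison. The median log2 fold change was −0.90 over the S phase members and −0.81 over the mitosis members, beside 0.03 over all genes. With the combination treatment 17 members of each class fell, against 31.3% of all genes called lower. There, 2 S phase members (CCNE1 and E2F1) and 1 mitosis member (CENPA) rose, against 35.9% of all genes called higher. The medians were −0.63 and −0.45, beside 0.05 over all genes. With library size alone as scaling, 15 S phase members fell and 4 rose, and 10 mitosis members fell and 1 rose, while with decitabine 17 S phase and 20 mitosis members fell and 1 of each class rose. In the decitabine libraries, 21 S phase and 22 mitosis members lay below every control library, against 34.8% of all genes. Combination treatment libraries lay below every control for 18 and 18 members, against 33.6% of all genes. Both comparisons share the control libraries.

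**Figure D1:**
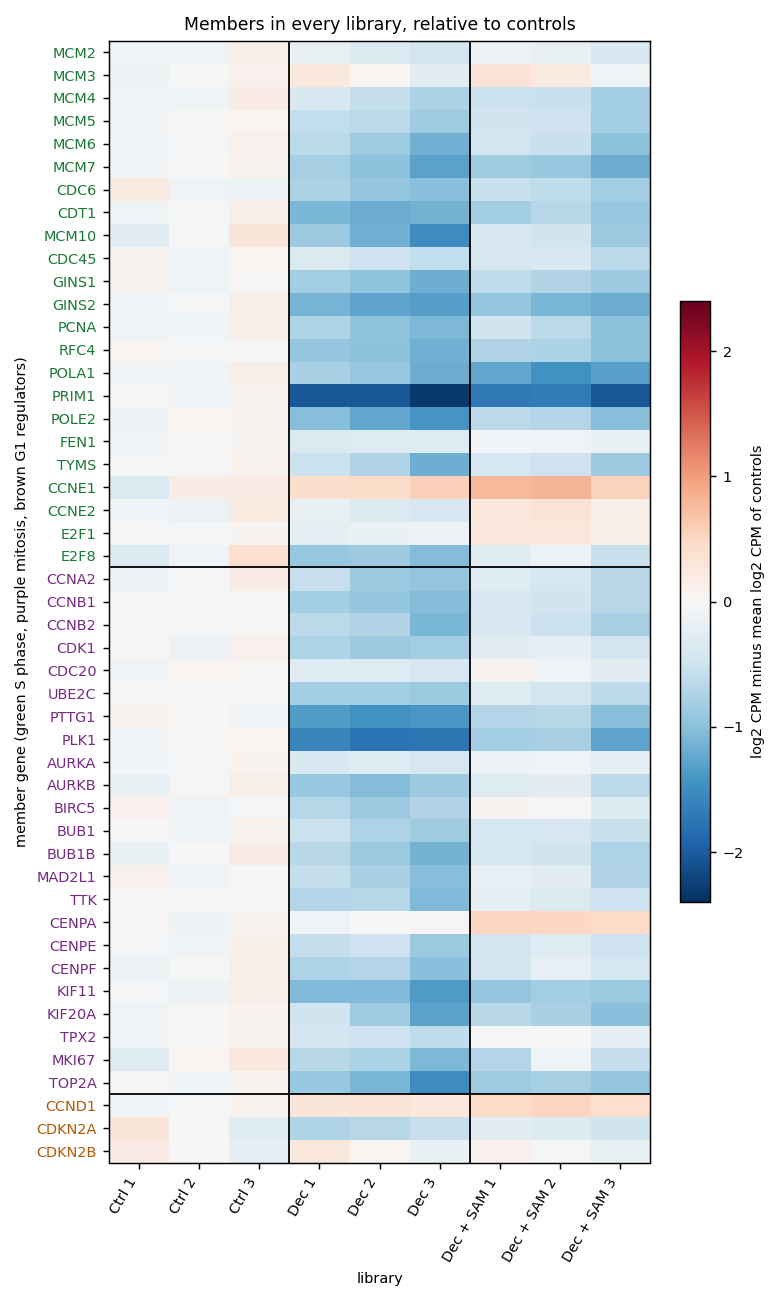
Colours give log2 CPM minus the mean log2 CPM of the controls for the 49 members tested (rows, green S phase, purple mitosis, brown G1) in each of the 9 libraries (columns). Nearly all S phase and mitosis rows are blue in the decitabine columns and paler in the combination treatment columns, with CCNE1, CENPA and CCND1 as red rows in the last.

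**Figure D2:**
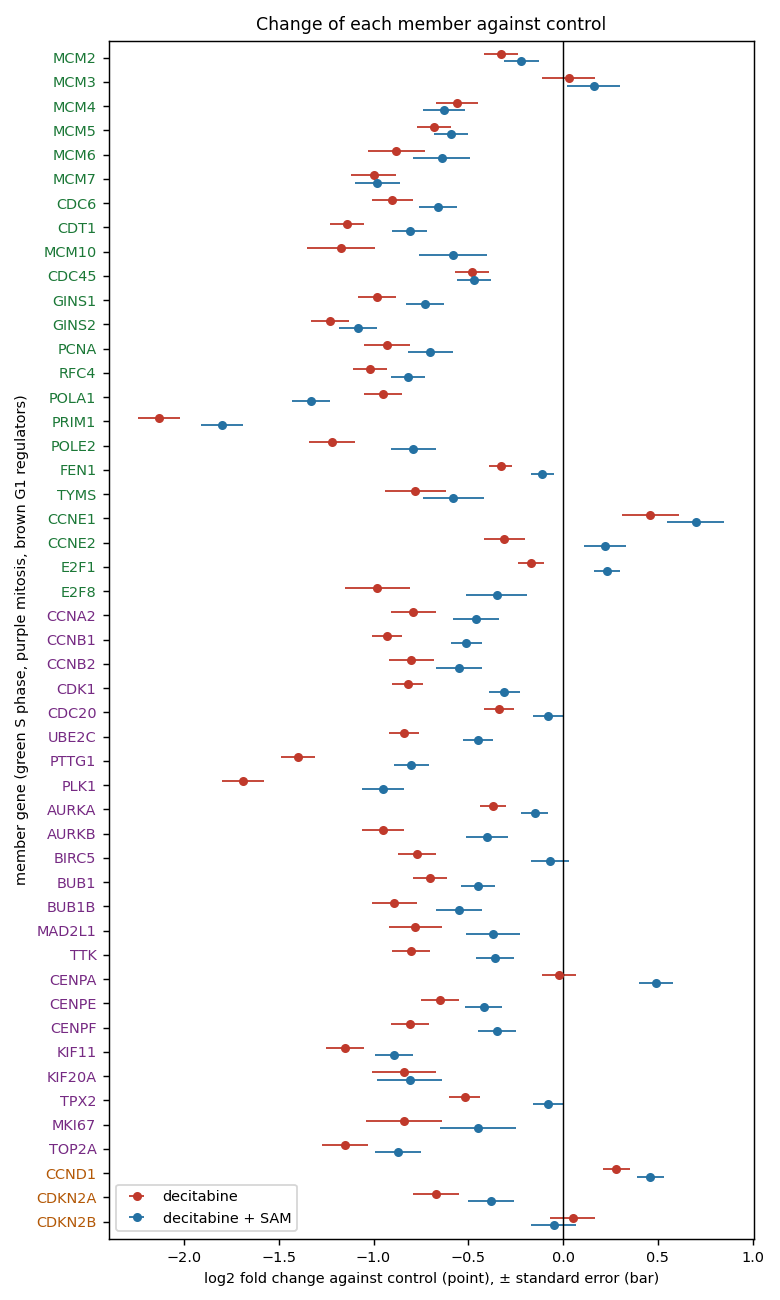
Points are log2 fold changes against control with bars of 1 standard error for the 49 members tested, red for decitabine and blue for the combination treatment. PRIM1 lies farthest to the left in both, and most blue points lie to the right of the red ones.

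Replicates of a group were not level with each other. The median S phase member, relative to the control mean, was at −0.75, −0.88 and −1.08 on the log2 scale in decitabine replicates 1, 2 and 3, and at −0.48, −0.55 and −0.86 in the combination treatment. The mitosis medians were −0.66, −0.82 and −0.99 with decitabine and −0.39, −0.35 and −0.64 with the combination treatment. Control libraries lay between −0.07 and 0.11 for both classes. Replicate 3 was thus the lowest library of each treated group, and it was the lowest combination treatment library for 22 of 23 S phase and 20 of 23 mitosis members. Without both of these libraries, 20 S phase and 21 mitosis members fell with decitabine, and 16 and 17 fell with the combination treatment. The S phase members that rose with the combination treatment were then 4 and not 2.

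**Figure D3:**
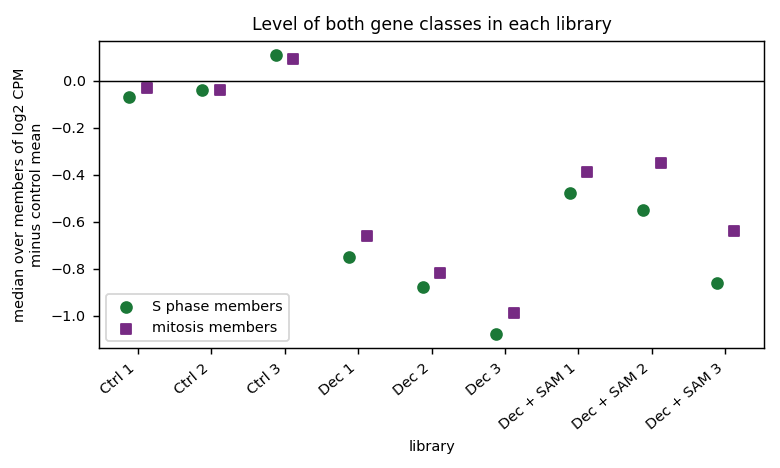
Each library has 1 point per class, the median over 23 S phase members (green circles) or 23 mitosis members (purple squares) of log2 CPM minus the control mean. Decitabine libraries lie between −1.08 and −0.66 and combination treatment libraries between −0.86 and −0.35. The mitosis point is above the S phase point in all 6 treated libraries, and by little in control replicates 1 and 2.

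Of the 12 origin licensing and helicase genes, 11 fell with decitabine (median log2 fold change −0.89) and 11 with the combination treatment (median −0.64). The helicase ring itself changed unevenly. MCM2 (chr3:127598410-127622436, GENCODE on GRCh38, as for all gene positions) was at 167, 165 and 191 CPM in the controls, 153, 136 and 126 with decitabine and 159, 154 and 135 with the combination treatment. All 6 treated libraries lay below the controls, by little: the log2 fold change was −0.33 with decitabine (SE 0.09, adjusted p = 0.0047) and −0.22 with the combination treatment (SE 0.09, adjusted p = 0.042). The second call was lost with DESeq2's size factors (adjusted p = 0.053), and without control replicate 3 (−0.16), decitabine replicate 2 (−0.23) or combination treatment replicate 2 (−0.25) or 3 (−0.16). DESeq2's Wald test (adjusted p = 0.054) and a filter at a mean of at least 10 counts (adjusted p = 0.055) also ended this call. So did leaving out replicate 3 of both treated groups (−0.15, adjusted p = 0.1). With library size alone as scaling neither passed, at −0.09 (adjusted p = 0.38) and 0.00 (adjusted p = 0.97).

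MCM5 (chr22:35400134-35425431) was at 114, 122 and 123 CPM in the controls, 79.7, 77.8 and 66.1 with decitabine and 85.6, 84.5 and 68.3 with the combination treatment. Both treated groups lay below every control library, with log2 fold changes of −0.68 (SE 0.09, adjusted p = 1.6e-05) and −0.59 (SE 0.09, adjusted p = 6.7e-05). MCM4 fell by 0.56 and 0.63, MCM6 by 0.88 and 0.64, and MCM7 by 1.0 and 0.98 on the log2 scale. MCM3 was the exception, at 128 to 151 CPM in control libraries, 117 to 167 with decitabine, and 130 to 177 in the combination treatment group. Its groups overlapped, and the log2 fold changes of 0.03 and 0.16 did not pass the test (adjusted p = 0.86 and 0.32). With the combination treatment MCM3 was called higher with library size alone (0.38, adjusted p = 0.02). The same held without replicate 3 of both treated groups (0.28, adjusted p = 0.007). Per kilobase of transcript, the control level of MCM7 was 176 CPM per kb and that of the other 5 ring genes 27.0 to 50.7.

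The loaders CDC6 and CDT1 fell in both groups. CDC6 (chr17:40287879-40304657), an ATPase that loads MCM2–7 together with CDT1, was at 119, 97.2 and 94.2 CPM in the controls, 60.6, 54.3 and 51.6 with decitabine and 71.5, 67.8 and 57.4 with the combination treatment. Every treated library lay below every control, with log2 fold changes of −0.90 (SE 0.11, adjusted p = 3.9e-06) and −0.66 (SE 0.10, adjusted p = 7.1e-05). CDT1 (chr16:88803789-88809258) was at 37.9, 40.3 and 44 CPM in the controls, 19.0, 17.8 and 18.5 with decitabine and 23.0, 25.2 and 21.6 with the combination treatment. The 3 groups did not overlap, and the log2 fold change against control was −1.14 (SE 0.09, adjusted p = 5.9e-08) with decitabine and −0.81 (SE 0.09, adjusted p = 1.7e-06) with the combination treatment.

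Factors that turn the loaded ring into a moving helicase fell as well. MCM10 (chr10:13161558-13211110), which acts at origin firing, was at 20.1, 23.1 and 29.1 CPM in the controls, 13, 10.7 and 8.33 with decitabine and 18.2, 17.1 and 13 with the combination treatment. Its control libraries were spread widely, and no treated library reached the lowest of them. The log2 fold changes were −1.17 (SE 0.18, adjusted p = 0.00013) and −0.58 (SE 0.18, adjusted p = 0.013), the second being −0.37 and not called with library size alone (adjusted p = 0.078). CDC45 (chr22:19479457-19520612), a helicase subunit, was at 44, 39.3 and 43.4 CPM in the controls, 33.0, 29.9 and 27.9 with decitabine and 31.9, 32.4 and 27.4 with the combination treatment. Here the treated groups overlapped each other and lay below the controls, at log2 fold changes of −0.48 (SE 0.09, adjusted p = 0.00032) and −0.47 (SE 0.09, adjusted p = 0.00042). GINS2 (chr16:85676198-85690073), another helicase subunit, was at 45.2, 47.8 and 54.0 CPM in the controls, 22.6, 20.4 and 19.6 with decitabine and 25.2, 22.9 and 21.4 with the combination treatment. It fell below every control library in both groups, by 1.23 (SE 0.10, adjusted p = 6.1e-08) and 1.08 (SE 0.10, adjusted p = 2.1e-07) on the log2 scale. Its partner GINS1 fell by 0.98 and 0.73.

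All 6 genes of the clamp, its loader, the polymerases and the flap nuclease fell with decitabine, and 5 with the combination treatment. PRIM1 (chr12:56730438-56752374), the small catalytic subunit of primase that makes the RNA primers, was at 49.4, 46.2 and 50.7 CPM in the controls, 11.9, 11.7 and 9.77 with decitabine and 14.9, 15.3 and 11.9 with the combination treatment. No treated library came near a control. The log2 fold changes, −2.13 (SE 0.11, adjusted p = 1.1e-09) and −1.80 (SE 0.11, adjusted p = 5.1e-09), were the lowest of all 49 members tested in both comparisons. POLA1 (chrX:24693873-24996986), the polymerase that extends these primers, was at 82.2, 82.7 and 95.1 CPM in the controls, 50.5, 46.1 and 38.1 with decitabine and 36.5, 31.7 and 34.9 with the combination treatment. POLA1 was lowest in the combination treatment, without overlap of the groups, at a log2 fold change of −1.33 (SE 0.10, adjusted p = 5.6e-08) against −0.95 (SE 0.10, adjusted p = 1.4e-06) with decitabine.

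PCNA (chr20:5114953-5126626), the sliding clamp, was at 152, 155 and 181 CPM in the controls, 96.8, 82.9 and 76.9 with decitabine and 116, 103 and 82.2 with the combination treatment. All treated libraries lay below the controls and the treated groups overlapped each other, with log2 fold changes of −0.93 (SE 0.12, adjusted p = 3.3e-05) and −0.70 (SE 0.12, adjusted p = 0.00032). POLE2 (chr14:49643555-49688422), a subunit of the leading-strand polymerase, was at 31.4, 35.4 and 36 CPM in the controls, 16.9, 14.5 and 12.8 with decitabine and 21.9, 20.9 and 16.8 with the combination treatment. It lay below every control in both groups, at log2 fold changes of −1.22 (SE 0.12, adjusted p = 6.2e-07) and −0.79 (SE 0.12, adjusted p = 3.7e-05). The clamp loader subunit RFC4 fell by 1.02 and 0.82 on the log2 scale. FEN1, the nuclease that trims Okazaki fragments, fell by 0.33 with decitabine and was at −0.11 with the combination treatment (adjusted p = 0.14), and with library size alone its decitabine value was −0.08 (adjusted p = 0.26). Thymidylate synthase, TYMS (chr18:657653-673578), which makes the thymidylate for DNA synthesis, was at 116, 117 and 128 CPM in the controls, 83.6, 72.6 and 53.2 with decitabine and 89.8, 84.9 and 65.9 with the combination treatment. Its replicates were spread within both treated groups but none reached the controls, and the log2 fold changes were −0.78 (SE 0.16, adjusted p = 0.0015) and −0.58 (SE 0.16, adjusted p = 0.0084).

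Of the 4 members that act at the entry to S phase, 3 fell and 1 rose with decitabine, and 0 fell and 2 rose with the combination treatment. Of all genes, 36.3% and 35.9% rose, which lies between the 25% and 50% of these genes of S phase entry. The fallers were 75% and 0% of these genes, beside 32.5% and 31.3% of all genes. CCNE1 (chr19:29811991-29824312), cyclin E1, which activates CDK2 at this step, was at 5.5, 7.94 and 7.99 CPM in the controls, 9.42, 9.61 and 10.5 with decitabine and 12.1, 12.4 and 10.3 with the combination treatment. Every treated library lay above every control. It rose by 0.46 on the log2 scale with decitabine (SE 0.15, adjusted p = 0.012), a call that was lost without control replicate 1 (0.30, adjusted p = 0.066), and by 0.70 with the combination treatment (SE 0.15, adjusted p = 0.0007). The other E-type cyclin, CCNE2 (chr8:94879770-94896678), was at 20, 19.0 and 24.6 CPM in the controls, 18.7, 16.5 and 16 with decitabine and 25.0, 26.4 and 22.8 with the combination treatment. Decitabine libraries lay just below the controls (log2 fold change −0.31, SE 0.11, adjusted p = 0.02), and the combination treatment overlapped them (0.22, SE 0.11, adjusted p = 0.085, or 0.33 and 0.017 without control replicate 3). The decitabine call was lost without control replicate 3 (−0.21, adjusted p = 0.11), decitabine replicate 2 (−0.29, adjusted p = 0.063) or decitabine replicate 3 (−0.27, adjusted p = 0.065). With library size alone CCNE2 was at −0.07 with decitabine (adjusted p = 0.58) and was called higher with the combination treatment, at 0.44 (adjusted p = 0.0023).

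E2F1 (chr20:33675477-33686385), the activating E2F factor, was at 95.1, 96.4 and 103 CPM in the controls, 84.0, 87.5 and 90.6 with decitabine and 119, 119 and 108 with the combination treatment. The 3 groups did not overlap, with decitabine below and the combination treatment above the controls. The log2 fold change with decitabine was −0.17 (SE 0.07, adjusted p = 0.043), and that with the combination treatment was 0.23 (SE 0.07, adjusted p = 0.0072). The decitabine call was lost in 10 of the alternatives tried, among them library size alone (0.08) and leaving out control replicate 2 (−0.19) or 3 (−0.14), decitabine replicate 1 (−0.14) or 2 (−0.17), or combination treatment replicate 2 (−0.17). E2F8 (chr11:19224063-19241620), a repressing E2F factor that is itself induced at S phase, was at 13.7, 16.4 and 23.0 CPM in the controls, 9.16, 9.44 and 8.37 with decitabine and 14.1, 15.7 and 12 with the combination treatment. It fell by 0.98 with decitabine (SE 0.17, adjusted p = 0.00017), below every control. The combination treatment overlapped the widely spread controls, at a log2 fold change of −0.35 (SE 0.16, adjusted p = 0.075), which was −0.51 and called without control replicate 1 (adjusted p = 0.01).

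Among the cyclins and the kinase of G2 and mitosis, all 4 fell in both groups, and the medians of their log2 fold changes were −0.81 and −0.49. CDK1 (chr10:60778331-60794852), the kinase that drives entry into mitosis, was at 176, 161 and 187 CPM in the controls, 105, 94.9 and 97.2 with decitabine and 145, 150 and 127 with the combination treatment. The 3 groups did not overlap, with the combination treatment in between, and the log2 fold changes against control were −0.82 (SE 0.08, adjusted p = 8.3e-07) and −0.31 (SE 0.08, adjusted p = 0.0038). The second was −0.09 and not called with library size alone (adjusted p = 0.31). Its partner cyclin B1, CCNB1 (chr5:69167135-69178245), was at 136, 134 and 139 CPM in the controls, 77.8, 71.6 and 65.9 with decitabine and 103, 98.3 and 85.9 with the combination treatment. The order of the groups was that of CDK1, again without overlap, at log2 fold changes of −0.93 (SE 0.08, adjusted p = 2.1e-07) and −0.51 (SE 0.08, adjusted p = 6.8e-05). Cyclins CCNA2 and CCNB2 fell by 0.79 and 0.80 with decitabine and by 0.46 and 0.55 with the combination treatment, where CCNA2 was at −0.25 and not called with library size alone (adjusted p = 0.074).

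All 4 genes of the mitotic kinases and survivin fell with decitabine, and 2 of them, PLK1 and AURKB, with the combination treatment. PLK1 (chr16:23677656-23690367), a kinase of mitotic entry, centrosomes and cytokinesis, was at 96.9, 104 and 105 CPM in the controls, 34.0, 29.7 and 30.8 with decitabine and 56.8, 58.8 and 42.5 with the combination treatment. Its 3 groups stood apart from each other. The log2 fold changes, −1.69 (SE 0.11, adjusted p = 1.1e-08) and −0.95 (SE 0.11, adjusted p = 2.3e-06), were the lowest of the mitosis members in both comparisons. AURKA (chr20:56369389-56392337), the Aurora kinase of the spindle poles, was at 102, 104 and 113 CPM in the controls, 82.0, 85.2 and 80.0 with decitabine and 97.8, 99.8 and 90.4 with the combination treatment. Both treated groups lay below the controls by little, at log2 fold changes of −0.37 (SE 0.07, adjusted p = 0.00031) and −0.15 (SE 0.07, adjusted p = 0.077), and with library size alone the decitabine value was −0.12 and not called (adjusted p = 0.12).

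BIRC5 (chr17:78214186-78225636), survivin, which is part of the chromosomal passenger complex and also blocks cell death, was at 360, 317 and 330 CPM in the controls, 208, 182 and 202 with decitabine and 350, 342 and 266 with the combination treatment. Decitabine libraries lay far below the controls (log2 fold change −0.77, SE 0.10, adjusted p = 9.4e-06). Combination treatment libraries overlapped the controls at −0.07 (SE 0.10, adjusted p = 0.54), and this value was 0.04 without combination treatment replicate 3. AURKB, the Aurora kinase of the same complex, fell by 0.95 and 0.40 on the log2 scale, the second being −0.18 and not called with library size alone (adjusted p = 0.15).

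Of the 3 genes of the anaphase-promoting complex and securin, all fell with decitabine and 2 with the combination treatment. Securin, PTTG1 (chr5:160421855-160428739), which holds back the cleavage of cohesin, was at 64.6 to 72.7 CPM in control libraries, 24.9 to 27.1 with decitabine, and 33.7 to 42.7 in the combination treatment group. It fell by 1.40 (SE 0.09, adjusted p = 1.6e-08) and 0.80 (SE 0.09, adjusted p = 3.4e-06) on the log2 scale, without overlap, although near-identical copies of this gene make its counts uncertain. UBE2C, the E2 enzyme of the complex, fell by 0.84 and 0.45, and its activator CDC20 by 0.34 with decitabine, at −0.08 with the combination treatment (adjusted p = 0.4). With library size alone the decitabine value of CDC20 was −0.09 (adjusted p = 0.3). The 4 spindle checkpoint genes, BUB1, BUB1B, MAD2L1 and TTK, fell in both groups, by 0.70 to 0.89 with decitabine and by 0.36 to 0.55 with the combination treatment. MAD2L1 was not called there without control replicate 1 (−0.33), control replicate 3 (−0.39) or combination treatment replicate 3 (−0.23), and with library size alone neither MAD2L1 (−0.15) nor TTK (−0.14) was.

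CENPA (chr2:26764289-26801067), the histone variant that marks centromeres, was the 1 mitosis member not called lower with decitabine. It was at 21.2, 19.0 and 22 CPM in the controls, 19.3, 20.9 and 21.2 with decitabine and 29.4, 29.3 and 28.5 with the combination treatment. The controls and decitabine libraries overlapped (log2 fold change −0.02, SE 0.09, adjusted p = 0.88, or 0.23 with library size alone). All 3 combination treatment libraries lay above all others, at 0.49 against the controls (SE 0.09, adjusted p = 0.00015). CENPF (chr1:214603185-214664574), a protein of the outer kinetochore, was at 134, 147 and 158 CPM in the controls, 87.3, 89.9 and 73.2 with decitabine and 107, 128 and 109 with the combination treatment. It fell in both groups without overlap, by 0.81 (SE 0.10, adjusted p = 3.9e-06) and 0.35 (SE 0.10, adjusted p = 0.0045), and the kinetochore motor CENPE fell by 0.65 and 0.42 on the log2 scale. With library size alone the combination treatment values were −0.13 (adjusted p = 0.22) and −0.20 (adjusted p = 0.086), and neither was called.

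**Figure D4:**
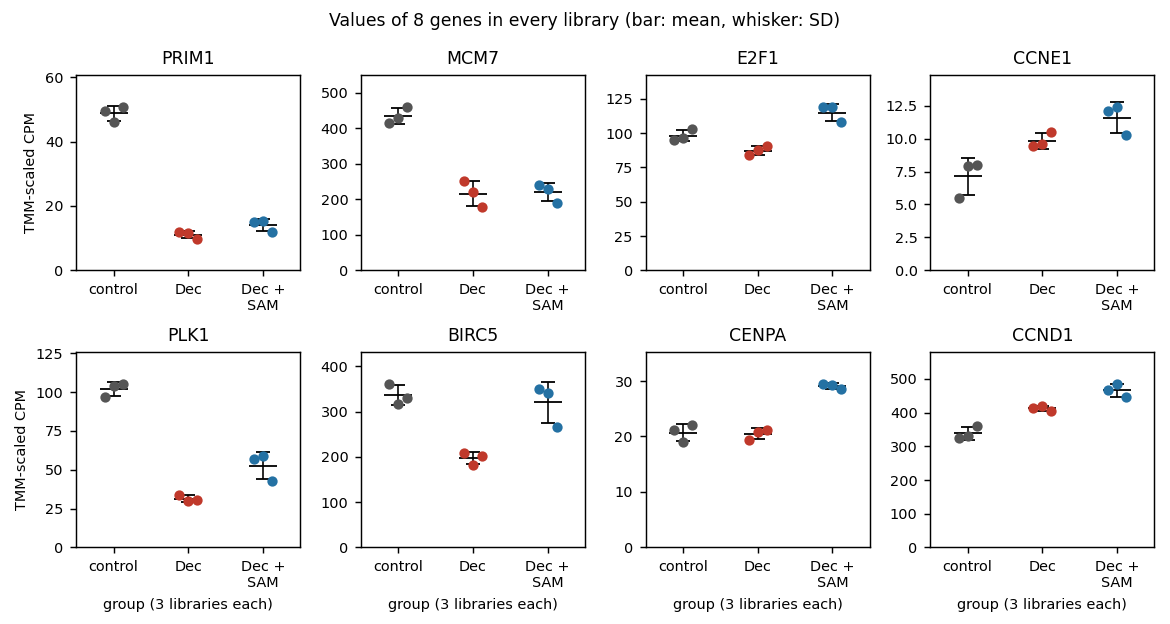
TMM-scaled CPM (vertical axes, each from 0) of 8 members in the 3 libraries of each group, with the mean as a bar and the SD as a whisker. PRIM1 and MCM7 are low in both treated groups, PLK1 lies in between with the combination treatment, BIRC5 is back among the controls there, and CENPA, E2F1, CCNE1 and CCND1 are highest there.

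The spindle motor KIF20A (chr5:138178719-138187723), which acts in cytokinesis, was at 90.6, 95.6 and 102 CPM in the controls, 68.5, 53.3 and 39.5 with decitabine and 60.5, 56.2 and 48.1 with the combination treatment. Both treated groups lay below the controls and overlapped each other, at log2 fold changes of −0.84 (SE 0.17, adjusted p = 0.0017) and −0.81 (SE 0.17, adjusted p = 0.0022). KIF11, the motor that separates the spindle poles, fell by 1.15 and 0.89. TPX2, the spindle assembly factor that activates AURKA, fell by 0.52 with decitabine and was at −0.08 with the combination treatment (adjusted p = 0.42). MKI67 (chr10:128096659-128126423), which encodes the proliferation marker Ki-67, was at 187, 239 and 277 CPM in the controls, 146, 136 and 109 with decitabine and 143, 216 and 156 with the combination treatment. The control libraries were spread widely. It fell by 0.84 with decitabine (SE 0.20, adjusted p = 0.0052), a call lost without replicate 3 of both treated groups (−0.73, adjusted p = 0.053). The combination treatment overlapped the controls at −0.45 (SE 0.20, adjusted p = 0.076). With all libraries, MKI67 was called lower there by voom with limma (−0.45, adjusted p = 0.03) and by DESeq2's Wald test (−0.44, adjusted p = 0.013). It was also called without control replicate 1 (−0.60, adjusted p = 0.022) or combination treatment replicate 2 (−0.65, adjusted p = 0.0061). TOP2A (chr17:40388525-40417896), topoisomerase II alpha, which untangles sister chromatids, was at 303, 291 and 321 CPM in the controls, 163, 143 and 107 with decitabine and 168, 176 and 158 with the combination treatment. It lay below the controls in every treated library, by 1.15 (SE 0.12, adjusted p = 3.5e-06) and 0.87 (SE 0.12, adjusted p = 3.9e-05) on the log2 scale.

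Of the 4 G1 regulators, 1 rose, 1 fell and 1 did not pass the test in both comparisons against control, and 1 of 3 tested is near the share of all genes called in either direction. CCND1 (chr11:69641156-69654474), cyclin D1, which activates CDK4 and CDK6 against the retinoblastoma protein, was at 325, 331 and 361 CPM in the controls, 413, 420 and 404 with decitabine and 467, 484 and 445 with the combination treatment. Its 3 groups did not overlap, and it rose by 0.28 (SE 0.07, adjusted p = 0.0022) and 0.46 (SE 0.07, adjusted p = 4.4e-05) on the log2 scale. CCND2, another D-type cyclin, had 0, 2 and 0 counts in the controls, 0, 0 and 1 with decitabine and 0, 1 and 0 with the combination treatment, so a difference was not detectable at this depth.

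CDKN2A (chr9:21967752-21995301), whose transcripts for the CDK4/6 inhibitor p16 and for ARF were counted together, was at 211, 174 and 141 CPM in the controls, 104, 109 and 118 with decitabine and 143, 138 and 124 with the combination treatment. Decitabine libraries lay below the spread-out controls, at a log2 fold change of −0.67 (SE 0.12, adjusted p = 0.00039). Combination treatment libraries overlapped the controls at −0.38 (SE 0.12, adjusted p = 0.016), which was not called without control replicate 1 (−0.23, adjusted p = 0.063) or combination treatment replicate 3 (−0.32, adjusted p = 0.064), or with library size alone (−0.16, adjusted p = 0.26). CDKN2B (chr9:22002903-22009305), the inhibitor p15, was at 144, 127 and 108 CPM in the controls, 152, 130 and 111 with decitabine and 134, 121 and 111 with the combination treatment. Its groups overlapped throughout, at 0.05 and −0.05 (SE 0.12 each, adjusted p = 0.73 each). An antisense gene overlaps CDKN2B, and the use of strand in the counting is not given in the sources used here.

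Between the treatments, with decitabine libraries as the reference, most members lay higher with the combination treatment. Of the 23 mitosis members, 12 were higher with the combination treatment and 0 lower, and the fitted log2 fold change was above 0 for all 23, with a median of 0.40. Of the 23 S phase members, 6 were higher and 1 was lower, and 21 lay above 0, with a median of 0.23. Of all genes tested, 7.67% were called higher and 8.02% lower, and the median was 0.00. Combination treatment libraries lay above every decitabine library for 15 mitosis and 7 S phase members, against 17.2% of all genes. The counts depended on single libraries. The S phase count was 2 without decitabine replicate 2, combination treatment replicate 1 or combination treatment replicate 2, 3 without decitabine replicate 3, and 13 without combination treatment replicate 3, while the mitosis count was between 9 and 18 over all libraries left out in turn.

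The 12 mitosis members that were higher were CCNB1, CDK1, UBE2C, PTTG1, PLK1, AURKA, AURKB, BIRC5, TTK, CENPA, CENPF and TPX2. PLK1 differed most, by 0.74 on the log2 scale (SE 0.11, adjusted p = 0.0012), followed by BIRC5 (0.69, SE 0.10, adjusted p = 0.001) and PTTG1 (0.61, SE 0.09, adjusted p = 0.0017). All 4 mitotic kinase and survivin genes were higher, with a median of 0.62. CDK1 and CENPA were higher by 0.51 each (adjusted p = 0.0021 and 0.0024) and CCNB1 by 0.42 (adjusted p = 0.0054). AURKA was higher by 0.22 (adjusted p = 0.046), and this call was lost in 10 of the alternatives tried, among them each treated library left out but combination treatment replicate 3 (0.19 to 0.25), and control replicate 2 (0.22). AURKB and CENPF were not called without combination treatment replicate 2 (adjusted p = 0.052 and 0.053). KIF20A lay at 0.03 (SE 0.17, adjusted p = 0.92), and MKI67 at 0.40 with a wide error (SE 0.20, adjusted p = 0.22).

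Among the S phase members, 3 of the 4 genes of S phase entry were higher, CCNE2 by 0.54 (SE 0.11, adjusted p = 0.0065), E2F1 by 0.40 (SE 0.07, adjusted p = 0.0025) and E2F8 by 0.63 (SE 0.17, adjusted p = 0.025). The others were POLE2 at 0.43 (adjusted p = 0.029), CDT1 at 0.34 (adjusted p = 0.023) and FEN1 at 0.22 (adjusted p = 0.034). Leaving out decitabine replicate 2, combination treatment replicate 1 or combination treatment replicate 2 each ended the calls of E2F8 (0.54 to 0.67), POLE2 (0.35 to 0.42), CDT1 (0.28 to 0.34) and FEN1 (0.19 to 0.23), and leaving out decitabine replicate 3 those of E2F8 (0.58), POLE2 (0.34) and FEN1 (0.22). Without decitabine replicate 1 the calls of E2F8 (0.64) and FEN1 (0.20) ended, and without control replicate 2 that of FEN1 (0.22). MCM10 (0.59, SE 0.19, adjusted p = 0.052) and PRIM1 (0.33, SE 0.11, adjusted p = 0.058) lay just outside the threshold, and both passed without combination treatment replicate 3 (0.73 and 0.44). MCM10 also passed without control replicate 1 (0.59), control replicate 3 (0.59) or decitabine replicate 1 (0.76). Of the 12 licensing and helicase genes 1 was higher (8.33%), which is near the 7.67% of all genes. Their median was 0.14, and MCM7 lay at 0.02 (SE 0.12, adjusted p = 0.92) and CDC45 at 0.01 (SE 0.09, adjusted p = 0.94). POLA1 was the 1 member that was lower, at −0.39 (SE 0.10, adjusted p = 0.023). Its call was lost without decitabine replicate 1 (−0.29, adjusted p = 0.09), decitabine replicate 2 (−0.37, adjusted p = 0.09) or combination treatment replicate 2 (−0.33, adjusted p = 0.12). Of the G1 regulators none passed, with CDKN2A at 0.29 (adjusted p = 0.13), CCND1 at 0.17 (adjusted p = 0.1) and CDKN2B at −0.10 (adjusted p = 0.61).

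**Figure D5:**
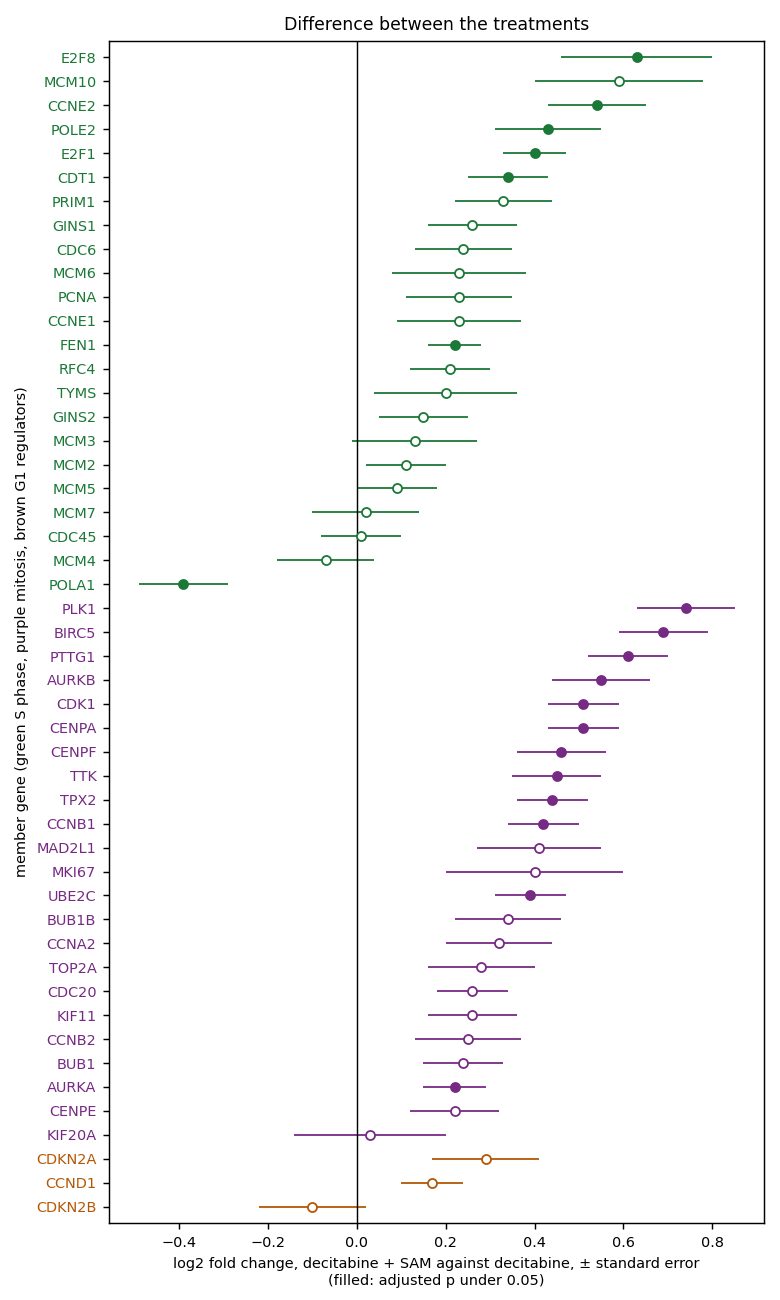
Points are log2 fold changes of the combination treatment against decitabine with bars of 1 standard error for 49 members, filled where the adjusted p was under 0.05. All 23 mitosis members lie above 0, up to PLK1 at 0.74, and of the S phase members MCM4 and POLA1 lie below 0.

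The classes were set side by side by their medians. The S phase median was below the mitosis median by 0.09 on the log2 scale with decitabine (SD 0.024 between libraries) and by 0.18 with the combination treatment (SD 0.054). Between the treatments, the rise of the S phase median was 0.17 less (SD 0.051). The S phase median was the lower of the pair in each of the 6 treated libraries, and also in control replicates 1 and 2. S phase minus mitosis was −0.04, −0.01 and 0.02 in the control libraries and −0.08, −0.05 and −0.08 with decitabine. With the combination treatment it was −0.09, −0.2 and −0.23. A difference between the classes was not tested, since members of 1 class share their regulation and are not replicates. With single libraries left out, it ranged from −0.12 to −0.03, from −0.22 to −0.13 and from −0.18 to −0.14 in the 3 comparisons.

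A further 123 genes of the same pathways, all tested, were counted beside the members. With decitabine, 38 of 45 S phase genes and 51 of 55 mitosis genes fell and 0 of either rose, with median log2 fold changes of −0.55 and −0.65, beside 32.5% of all genes called lower. The S phase median was here the higher of the pair, opposite to the order of the members. With the combination treatment 30 and 34 fell and 4 and 3 rose, beside 31.3% and 35.9% of all genes, and the medians were −0.40 and −0.34. Between the treatments 15 and 32 were higher and 0 were lower, beside 7.67% and 8.02% of all genes, with medians of 0.23 and 0.31. The kinetochore gene SPC25 and the condensin gene NCAPH fell by 1.65 and 1.61 on the log2 scale with decitabine, and SPC24, the partner of SPC25, by 1.76 with the combination treatment. NCAPH fell by 1.35 there and E2F7, a repressing E2F factor related to E2F8, by 1.26. POLE4, a small polymerase subunit, rose by 0.72 with the combination treatment. Between the treatments KIF18B, a kinesin of spindle microtubules, was higher by 0.72 and CDCA3 by 0.62. The call of CDCA3 was lost without combination treatment replicate 2 (adjusted p = 0.054).

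FOXM1 and MYBL2, the factors named above for mitosis genes, were among these genes. FOXM1 was at 187, 194 and 213 CPM in the controls, 115, 103 and 98.8 with decitabine and 145, 148 and 130 with the combination treatment. Its 3 groups did not overlap, and it fell by 0.91 and 0.49 on the log2 scale, with a rise of 0.42 between the treatments (adjusted p = 0.0052). MYBL2 was at 169, 196 and 215 CPM in the controls, 138, 139 and 121 with decitabine and 190, 180 and 161 with the combination treatment. It fell by 0.54 with decitabine (adjusted p = 0.00015), overlapped the controls with the combination treatment at −0.13 (adjusted p = 0.25), and was higher by 0.41 between the treatments (adjusted p = 0.011, or 0.057 without combination treatment replicate 2). GMNN, the geminin gene whose product holds CDT1 inactive, fell by 0.93 and 0.64.

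Of 23 other G1 genes, 5 rose and 13 fell with decitabine, and 4 rose and 11 fell with the combination treatment. Over all genes 36.3% rose and 32.5% fell with decitabine and 35.9% and 31.3% with the combination treatment. The risers among the G1 genes, 21.7% and 17.4%, were thus a smaller share, and the fallers, 56.5% and 47.8%, a larger share. Between the treatments 4 of these G1 genes were higher (17.4%) and 1 was lower (4.35%), beside 7.67% and 8.02% of all genes. CDKN1A, the CDK inhibitor p21, was at 10, 10.5 and 10.6 CPM in the controls, 43.5, 57.8 and 80.8 with decitabine and 41.1, 48.6 and 66.1 with the combination treatment. Every treated library lay well above the controls and the treated groups overlapped, at log2 fold changes of 2.55 (SE 0.27, adjusted p = 6.9e-05) and 2.32 (SE 0.27, adjusted p = 0.00013), with −0.22 between the treatments (adjusted p = 0.58). CDKN2D, the CDK4/6 inhibitor p19, was at 12.9, 11.7 and 12.4 CPM in the controls, 46.1, 51.2 and 46.6 with decitabine and 56.3, 55.2 and 43.9 with the combination treatment. It rose by 1.96 (SE 0.10, adjusted p = 1.6e-09) and 2.07 (SE 0.10, adjusted p = 9.4e-10). Another inhibitor of the same family, CDKN2C or p18, went the other way, at 58.8 to 61.1 CPM in control libraries, 18.8 to 20.4 with decitabine, and 22.7 to 27.4 in the combination treatment group. It fell by 1.60 and 1.25 and was higher by 0.35 between the treatments (adjusted p = 0.014). CDK6, a partner of cyclin D1, rose by 0.40 in both treated groups. The retinoblastoma gene RB1 fell by 0.84 and 0.94. RBL2, the related p130, was the 1 pathway gene lower between the treatments, by −0.33 (adjusted p = 0.018), a call lost without any 1 of decitabine replicates 1 and 2 and combination treatment replicates 1 and 2 (adjusted p = 0.06 to 0.094).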

How the data were processed

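The libraries were sequenced with BGISEQ-500 chemistry. According to the submitters' processing notes, reads were trimmed with Trim Galore 0.6.4 and counted with kallisto 0.4.6 against GRCh38.p13. The values used are the estimated counts the authors deposited for each Ensembl gene, without normalization. Deposited log2 CPM values were not used. Of 60617 identifiers, 60357 had a symbol in GENCODE release 44.

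Counts were rounded. The 18532 genes passing filterByExpr were tested with edgeR 4.0.16 (R 4.3.3) by the quasi-likelihood test with TMM scaling, robust dispersion and 1 mean per group over all 9 libraries. Adjusted p-values are Benjamini-Hochberg values over all genes tested, with a threshold of 0.05. Depth was 21934307 to 22489684 counts per library. No library was a copy of another (chi-square per degree of freedom of 5.86 or more within groups). On simulated data the test recovered 95.0%, 97.0% and 96.5% of 2-fold changes and 74.6%, 71.6% and 80.4% of 1.5-fold changes for decitabine against control, the combination against control and the combination against decitabine, and 5.77%, 3.76% and 4.18% of its calls were false. The simulated data had 200 changed genes per treated group, the same spread for all genes and no deviating library, with 15825 to 15874 genes tested. Far more genes were called in the real libraries, so these rates may not hold for the calls given here.

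The members and gene lists were chosen with earlier results of these data known. Values in every library were given for 28 listed members and for the called members with the largest rise and fall of each class; other pathway genes were named if listed or among the 3 largest called changes per direction. Values of certain single genes are not reported here. Alternatives were DESeq2 1.42.0 and its size factors, library size alone, voom with limma 3.58.1, other filters, fewer libraries, a replicate block and a log2 threshold of 1.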

Additional observations from a re-analysis of the deposited data

How the results depend on the processing

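Alternatives were run for the counts of S phase and mitosis members called in each direction and for the difference of the class medians. The share of all genes called was counted for the main fit only, so the counts under the alternatives have no such share beside them. With library size alone, 17 S phase and 20 mitosis members fell and 1 mitosis member rose with decitabine, and with the combination treatment 4 S phase members rose and 10 mitosis members fell. With a log2 fold change over 1 required, 7 S phase and 4 mitosis members fell with decitabine and 0 S phase members rose. With the combination treatment 3 S phase and 0 mitosis members fell and 0 of either class rose, and between the treatments 0 were called. Without replicate 3 of both treated groups, chosen after seeing the data, 4 S phase members rose with the combination treatment, and the class difference was −0.12 with decitabine and −0.13 with the combination treatment. Without a filter, 9 S phase and 18 mitosis members were higher between the treatments.

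With single libraries left out, the S phase members called ranged from 0 to 1 higher and 19 to 21 lower with decitabine, from 2 to 4 higher and 16 to 18 lower with the combination treatment, and from 2 to 13 higher and 0 to 1 lower between the treatments. The mitosis members ranged from 21 to 22 lower, from 1 to 1 higher and 16 to 18 lower, and from 9 to 18 higher. The class difference ranged from −0.12 to −0.03, from −0.22 to −0.13 and from −0.18 to −0.14.

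Some genes near 0 changed sign on the log2 scale. MCM3 with decitabine was at −0.01 without a filter, −0.04 without control replicate 1 and −0.10 without decitabine replicate 1, and at most 0.16 with libraries left out. E2F1 with decitabine was at 0.08 with library size alone. CENPA with decitabine was at 0.00 with DESeq2 or its size factors and with a mean of at least 10 counts, 0.23 with library size alone, 0.01 with the 6 libraries compared, and 0.02 without control replicate 3 or decitabine replicate 1. BIRC5 with the combination treatment was at 0.15 with library size alone, 0.04 without combination treatment replicate 3, −0.15 without replicate 1 of that group and 0.05 without replicate 3 of both treated groups. MYBL2 with the combination treatment was at 0.09 with library size alone, and CDKN1A between the treatments at 0.04 without decitabine replicate 3 and −0.44 without combination treatment replicate 3. The cause was not tested. Of the alternative values of single members, without MYBL2, CDKN1A and the other pathway genes, 1934 kept their direction and side of the threshold. A further 81 lost the call, 23 gained it and 14 changed sign.

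Replicate numbers were shared by the groups, but same-numbered libraries did not deviate together in every pair (correlations of −0.017 to 0.069 with the controls and 0.036 to 0.233 between the treated groups). Replicates 1 and 3 of the treated groups did so, at 0.233 and 0.229, while replicate 1 of each treated group was at −0.22 with replicate 3 of the other. The main fit did not use this pairing. With the replicate number as a block, 21 S phase and 22 mitosis members fell with decitabine, and 17 and 17 with the combination treatment. Between the treatments 8 and 15 were higher, against 6 and 12 in the main fit. The class differences were then −0.08, −0.19 and −0.16, and PRIM1 was called between the treatments at 0.33 (edgeR's quasi-likelihood test, adjusted p = 0.042).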
